A study of Mus musculus with 6 samples.

Results

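The transcripts of 10 genes that act at integrin adhesion sites were followed in bone marrow-derived macrophages (BMDMs) with and without PYK2. The genes were taken by symbol from the deposited count table, for the role of their products: the kinase PYK2 (Ptk2b), its paralog FAK (Ptk2), the adaptors paxillin (Pxn), p130Cas (Bcar1) and Crk, the actin-linking proteins vinculin (Vcl), talin-1 (Tln1) and zyxin (Zyx), and the Arf GTPase-activating proteins Git1 and Asap1. All 10 were among the 55291 genes of the table. Cells came from 3 WT mice and 3 mice with a whole-body PYK2 knockout (PYK2 KO), all of strain C57BL/6, and 1 library was made from the cells of each mouse. Marrow was grown for 7 days in medium with L929 cell supernatant as the source of M-CSF, with no further treatment. The sources used here do not give the age or sex of the mice, whether WT and PYK2 KO mice were littermates, or which exons the knockout allele lacks. The comparison asks how loss of PYK2 changes the transcripts of macrophages, and here those of the adhesion machinery in which PYK2 works.

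Integrins hold a macrophage to its matrix, and talin and vinculin connect their cytoplasmic tails to actin. PYK2 and FAK are the only kinases of their family. Both are recruited to such sites by paxillin, phosphorylate themselves, bind Src, and together with p130Cas and Crk pass the signal to Rac and the actin cytoskeleton. PYK2 is activated by calcium as well as by adhesion and is prominent in blood cells, whereas FAK is the main form in most adherent tissues.

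The libraries were made by a bulk form of MARS-seq, which reads the 3′ ends of polyadenylated transcripts. Their totals ran from 2857097 to 3917207 counts, and no pair of libraries of a genotype agreed within sampling noise. Values are given as counts and as CPM, that is, counts scaled to a common library size after TMM normalization. Of all genes, 9815 had enough counts to be tested (edgeR's filterByExpr), and 11 were higher and 14 lower in PYK2 KO BMDMs at an adjusted p under 0.05 (edgeR's quasi-likelihood test, p-values adjusted over all tested genes by the Benjamini-Hochberg method), or 0.255% of those tested. All 10 macrophage markers listed (among them Adgre1, Csf1r, Cd68 and Itgam) passed the filter and none passed the test, with a summed level of 29685 to 30464 CPM in the WT against 30856 to 31847 CPM in the PYK2 KO libraries. Lyz2 alone made up most of that sum, with means of 24068 and 25389 CPM, and the log2 fold change was above 0 for 4 and below 0 for 6 of the 10. The 8 stromal fibroblast markers listed, of interest because fibroblasts are rich in adhesion proteins, summed to at most 1.53 CPM in any library, with Col3a1, Dcn, Pdgfra and Lum at 0 counts throughout.

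**Figure D1:**
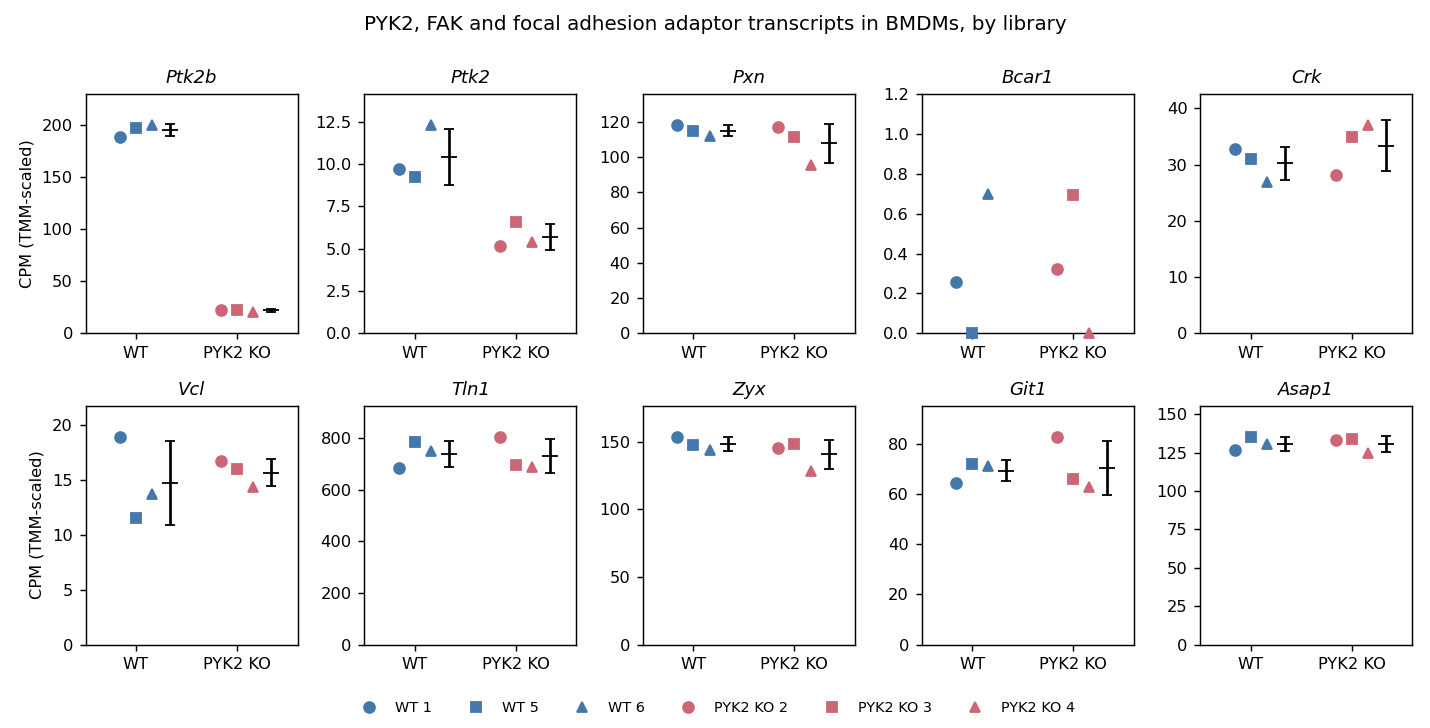
Level of each of the 10 transcripts (y axis, CPM after TMM scaling, from 0) in the 3 WT (blue) and 3 PYK2 KO (red) libraries, with the mean and SD of each genotype in black. Bcar1, which never exceeded 2 counts, has no mean. The genotypes part completely for Ptk2b and Ptk2 and overlap in the other panels.

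Ptk2b was the member that changed. Its transcript fell to 11.2% of the WT level, and the transcript of its paralog Ptk2 stood at 54.7% of the WT level, with the genotypes apart for both, but the Ptk2 difference did not pass the test over all genes. None of the 7 other tested members differed by more than 0.14 on the log2 scale, and Bcar1 was at the detection floor in both genotypes. Thus 1 of the 9 members that passed the filter was called, against 0.255% of all tested genes, and that one is the deleted gene. At an unadjusted p under 0.05 there were 2 of 9, Ptk2b and Ptk2, against 6.03% of all tested genes. The 3 PYK2 KO values were lower than each of the WT values for 2 of 9 members, against 5.07% of tested genes, and above them for 0 of 9, against 5.17%.

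The knockout was first read in Ptk2b itself (GENCODE gene ENSMUSG00000059456.13, chr14:66153257-66281052, minus strand, GRCm38). In WT mice 1, 5 and 6 it gave 737, 701 and 568 counts, and in PYK2 KO mice 2, 3 and 4 it gave 71, 64 and 69. Scaled, these were 188, 196 and 199 CPM against 22.8, 22.2 and 20.6 CPM, so the 3 WT libraries were close to each other, as were the 3 PYK2 KO libraries, and every library matched its labelled genotype. The means were 195 ± 5.63 CPM (SD, n = 3) in WT and 21.8 ± 1.14 CPM (SD, n = 3) in PYK2 KO BMDMs. The log2 fold change was -3.15 (SE 0.10, 95% interval -3.36 to -2.94), with an adjusted p of 1.03e-11 in edgeR's quasi-likelihood test, the smallest p of all genes. The remaining 64 to 71 counts stood far above the floor of 3 counts. Because only 3′ ends were counted and the deleted exons are not given, these counts do not show whether the remaining transcripts carry the deletion or encode a protein. In a bulk sample, fewer cells that express a gene cannot be told apart from less RNA in each cell.

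FAK, the paralog that shares the domain order of PYK2, is encoded by Ptk2 (ENSMUSG00000022607.17, chr15:73205102-73423280, minus strand). In the same order of mice, Ptk2 gave 38, 33 and 35 counts in WT and 16, 19 and 18 counts in PYK2 KO BMDMs. These corresponded to 9.70, 9.24 and 12.3 CPM against 5.13, 6.58 and 5.36 CPM. The highest PYK2 KO library was thus below the lowest WT library. The means were 10.4 ± 1.63 and 5.69 ± 0.778 CPM (SD, n = 3 each), and the log2 fold change was -0.86 (SE 0.24, 95% interval -1.38 to -0.34). Its unadjusted p was 0.00298, rank 73 of the 9815 tested genes, and its adjusted p was 0.401 in edgeR's quasi-likelihood test, so the difference is not called across the transcriptome. The exact two-sided permutation test of the 3 WT against the 3 PYK2 KO values gave p = 0.1, the smallest that this design allows, for Ptk2 as for Ptk2b. Within the span of Ptk2, at chr15:73407489-73408239, lies the processed pseudogene Gm7908 on the same strand, with 12 counts over all libraries. Strand could not separate their reads there, so the assignment of reads in that stretch is uncertain.

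The Ptk2 difference did not rest on 1 library. With each library left out in turn it stayed between -0.97 and -0.74 on the log2 scale, nearest to 0 without WT library 6, the highest of the WT values. Other normalizations, filters and tests gave -0.87 to -0.84. Its adjusted p never passed 0.05 and ran from 0.159 without a filter on low counts to 0.9998 with DESeq2. Ptk2 had 53 counts over the 3 PYK2 KO libraries and 106 over the 3 WT libraries. It was also the least precise of the 9 tested members, with an SE of 0.24. The median SE was 0.146 for all tested genes and 0.096 for those with a mean over 50 CPM.

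**Figure D2:**
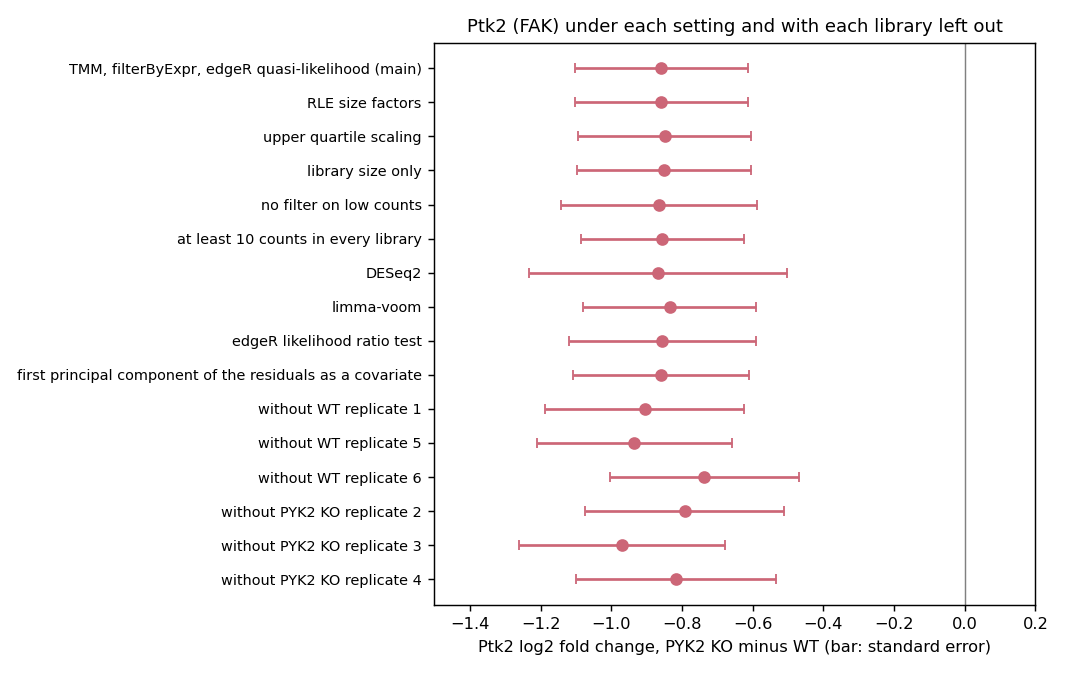
Log2 fold change of Ptk2, PYK2 KO minus WT (x axis), in the main fit (top), under 9 other settings and with each of the 6 libraries left out. Bars are standard errors. Each point lies between -0.97 and -0.74.

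Because Ptk2b and Ptk2 are paralogs, their transcripts were compared for sequence that reads of both could share. The longest run of bases shared by any of the 8 Ptk2b and 15 Ptk2 transcripts in GENCODE was 25 bases. In a Ptk2b transcript of 4034 bases and a Ptk2 transcript of 4675 bases, 2 runs of at least 20 bases were shared. They are shown as the longest stretches that the transcripts of the kinases have in common. Each is printed 5′ to 3′ on the transcript's strand, with the shared run in capitals and 20 flanking bases on each side in lower case, all of it coding. The first run lies at chr14:66154115-66154139 in the last exon, 31, of this Ptk2b transcript and at chr15:73206106-73206130 in the last exon, 34, of the Ptk2 transcript, in the part that encodes the C-terminal focal adhesion targeting domain, which binds paxillin.
Ptk2b, first run: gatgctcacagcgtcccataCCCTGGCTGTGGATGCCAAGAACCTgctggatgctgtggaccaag
Ptk2, first run: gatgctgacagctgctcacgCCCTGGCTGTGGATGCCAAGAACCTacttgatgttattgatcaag
The second run, of 23 bases, lies at chr14:66172114-66172136 in exon 17 of Ptk2b and at chr15:73266157-73266179 in exon 19 of Ptk2, in the part that encodes the kinase domain.
Ptk2b, second run: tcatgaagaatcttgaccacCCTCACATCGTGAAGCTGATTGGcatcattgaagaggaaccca
Ptk2, second run: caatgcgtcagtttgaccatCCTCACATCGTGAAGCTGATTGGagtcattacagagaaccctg
Of the 40 flanking bases, 28 were identical around the first run and 23 around the second. The first run ends 858 bases before the end of the Ptk2b transcript and 1004 bases before that of Ptk2. In the last 500 bases of the Ptk2b transcript, toward the end that the libraries read, the longest run found in any Ptk2 transcript was 12 bases.

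The adaptors that receive the signal were examined next. Paxillin, encoded by Pxn (chr5:115506676-115555987), is the scaffold that binds PYK2, FAK, vinculin and Git1. Its values were 118, 115 and 112 CPM in the WT libraries 1, 5 and 6 and 117, 111 and 95.7 CPM in the PYK2 KO libraries 2, 3 and 4. The genotypes overlapped, with PYK2 KO libraries 3 and 4 below all WT values and PYK2 KO library 2 within their range, and the log2 fold change was -0.09 (SE 0.09, 95% interval -0.29 to 0.10, adjusted p = 0.947 in edgeR's quasi-likelihood test).

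Crk (chr11:75679259-75706908) is the SH2 and SH3 adaptor that docks on phosphorylated p130Cas and paxillin. It was at 32.7, 31.1 and 27.0 CPM in the WT against 28.2, 34.985 and 37.0 CPM in the PYK2 KO libraries. PYK2 KO libraries 3 and 4 lay above every WT library and PYK2 KO library 2 within their range, for a log2 fold change of 0.14 (SE 0.14, 95% interval -0.17 to 0.44, adjusted p = 0.9497 in edgeR's test).

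p130Cas itself was not measurable. Bcar1 (chr8:111710474-111743809) had 1, 0 and 2 counts in WT and 1, 2 and 0 counts in the PYK2 KO libraries, 3 counts in all in each genotype. It did not pass the filter and no fold change is given, since 3 counts, the floor, correspond to 0.766 to 1.05 CPM in these libraries. Of its relatives, Nedd9, which encodes the p130Cas-like adaptor HEF1, had 19 to 32 counts and was tested (log2 fold change 0.26, SE 0.27, adjusted p = 0.949 in edgeR's test). Cass4 had 6 to 9 counts and did not pass the filter, and Efs had 0 counts in all 6 libraries.

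The actin-linking members overlapped between genotypes as well. Tln1 (chr4:43531519-43562691), whose product talin-1 binds integrin tails and switches integrins to their active state, was at 686, 787 and 749 CPM in WT against 807, 698 and 690 CPM in PYK2 KO BMDMs. The highest value was in PYK2 KO library 2 and the lowest in WT library 1, while the other 4 lay between them, and the log2 fold change of -0.018 had a 95% interval of -0.20 to 0.17. Zyx (chr6:42349630-42360213), which encodes the LIM protein zyxin that gathers at adhesions under tension, was at 154, 148 and 144 CPM in WT against 145, 149 and 128 CPM in PYK2 KO BMDMs. Only PYK2 KO library 4 fell below the WT values, and the log2 fold change was -0.08 (95% interval -0.26 to 0.10).

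Vcl (chr14:20929398-21033676), for vinculin, which strengthens the talin to actin connection, lies on the same chromosome as Ptk2b. It was at 18.9, 11.5 and 13.7 CPM in WT against 16.7, 15.9 and 14.3 CPM in PYK2 KO BMDMs, so the spread among WT mice (SD 3.81 CPM) was larger than the difference between the means of 14.7 and 15.6 CPM. Its interval was the widest of the 7, from -0.36 to 0.51 on the log2 scale around a fold change of 0.08. The 3′ end of Vcl overlaps Ap3m1 on the opposite strand (59 counts over all libraries), and whether strand was used in counting is not given, so the assignment of reads in the overlap is uncertain.

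Git1 and Asap1 inactivate Arf GTPases and so act on membrane traffic at adhesions, Git1 as a partner of paxillin and the PIX exchange factors and Asap1 as a partner of FAK, PYK2 and Src. Git1 (chr11:77493562-77507786) was at 64.6, 72.2 and 71.5 CPM in WT against 83.1, 66.2 and 62.9 CPM in PYK2 KO BMDMs. PYK2 KO library 2 was the highest of all and PYK2 KO library 4 the lowest, and the log2 fold change was 0.03 (95% interval -0.21 to 0.27). Asap1 (chr15:64086857-64382919), on the chromosome of Ptk2, was at 127, 135 and 130.4 CPM in WT against 133, 134 and 125 CPM in PYK2 KO BMDMs. Its means were 131 ± 4.42 and 131 ± 5.13 CPM (SD, n = 3 each), with a 95% interval of -0.17 to 0.17 for the log2 fold change.

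**Figure D3:**
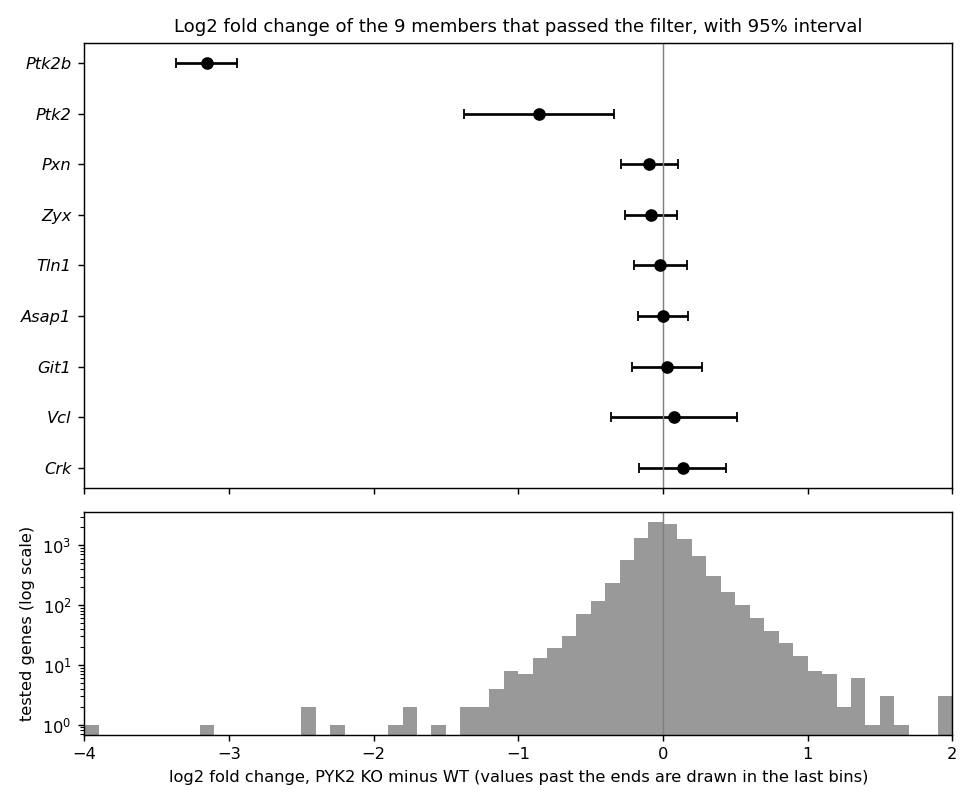
Top, log2 fold change, PYK2 KO minus WT, of the 9 members that passed the filter, with 95% intervals. Bottom, the same quantity for all 9815 tested genes (number of genes on a log axis). Ptk2b at -3.15 and Ptk2 at -0.86 have intervals below 0, and the other 7 lie between -0.09 and 0.14.

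For the 7 tested members other than the 2 kinases, the smallest adjusted p was 0.947 and the smallest unadjusted p was 0.328 (edgeR's quasi-likelihood test). Missing the threshold does not show that they were equal. The intervals bound the difference: for Asap1, Tln1, Pxn and Zyx they spanned 0.819 to 1.13 times the WT level together, for Git1 0.862 to 1.21 times, for Crk 0.890 to 1.36 times and for Vcl 0.782 to 1.42 times. The 8 tested members other than Ptk2b had a median log2 fold change of -0.0093, against 0.0019 for all tested genes.

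Several members belong to small families, and the libraries held the transcripts of only some relatives. Levels of the relatives are not ranked against each other here. Of 25 genes in 9 families of adhesion proteins, 16 passed the filter and 8 never exceeded the floor of 3 counts in a library, among them Bcar1, Efs, Tgfb1i1 (the paxillin relative Hic-5), Tln2 and Asap3. Among integrin activators, Fermt3, the kindlin of blood cells, had 1197 to 1697 counts, while Fermt1 and Fermt2 had 0 in every library. Among parvins, which link integrin-linked kinase to actin, Parvb had 229 to 336 and Parvg 278 to 441 counts, and Parva had 0. The paxillin family was present as Pxn and as Lpxn, which encodes leupaxin, a PYK2-binding adaptor of blood cells, with 599 to 918 counts. A count of 0 still allows up to 3 counts, or 0.766 to 1.05 CPM, for counting error alone.

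Lpxn was the relative that came nearest to a difference. It was at 234, 223 and 236 CPM in the WT libraries 1, 5 and 6 and 200.2, 207 and 198 CPM in the PYK2 KO libraries 2, 3 and 4. The 3 PYK2 KO values were lower than each WT value, with a log2 fold change of -0.20 (SE 0.08) that did not pass over all genes (unadjusted p = 0.0229, adjusted p = 0.706 in edgeR's test). Git2, the relative of Git1, was at 93.2 ± 0.537 CPM in WT against 97.7 ± 0.716 CPM in PYK2 KO BMDMs (SD, n = 3 each), with all PYK2 KO values higher, a log2 fold change of 0.07 (adjusted p = 0.964 in edgeR's test). Asap2, at 6 to 17 counts, had a log2 fold change of 0.55 with an SE of 0.35.

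The wider adhesion pathway was read in a list of 65 other genes in 4 roles, of which 50 passed the filter. At an adjusted p under 0.05, 0 rose and 0 fell (edgeR's quasi-likelihood test), also with DESeq2, limma-voom and the likelihood ratio test, and 4 of the 50 had an unadjusted p under 0.05, against 6.03% of all tested genes. Over the 50 genes the median log2 fold change was 0.014, against 0.0019 for all tested genes. By role, the medians were 0.07 for 7 relatives of the adaptors, -0.0083 for 16 genes of integrin activation and actin linkage, 0.02 for 16 exchange factors and effectors downstream of the adaptors, and -0.06 for 11 partners and regulators of PYK2 and FAK. PYK2 KO values lay wholly below WT for 3 of the 50 genes, against 5.07% of all tested genes, and wholly above for 4, against 5.17%.

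Among genes of integrin activation and actin linkage, Lims1, the LIM adaptor PINCH that joins integrin-linked kinase, had a log2 fold change of 0.22 (SE 0.10, unadjusted p = 0.0375, adjusted p = 0.783 in edgeR's test), with 82.5, 71.9 and 87.6 CPM in WT against 94.6, 91.1 and 94.8 CPM in PYK2 KO BMDMs. Actn1 had the lowest log2 fold change of this role, -0.14 (SE 0.08). Actn4 and Flna, which cross-link actin filaments, had values of 0.03 and 0.06.

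Downstream of the adaptors, the GTPase Cdc42, which drives filopodia and cell polarity, was at 336, 267 and 282 CPM in WT against 301, 359 and 415 CPM in PYK2 KO BMDMs. The genotypes overlapped through WT library 1 and PYK2 KO library 2, and the log2 fold change was 0.28 (SE 0.11, unadjusted p = 0.0263, adjusted p = 0.725 in edgeR's test). Arf6, an Arf GTPase of the cell surface, was at 236 ± 3.87 CPM in WT against 210.3 ± 8.61 CPM in PYK2 KO BMDMs (SD, n = 3 each), with all PYK2 KO values lower, a log2 fold change of -0.17 and an adjusted p of 0.823 in edgeR's test. Arf6 was named after its values were seen, as the last of the 4 genes with an unadjusted p under 0.05. Rac1 and Rhoa, the GTPases of lamellipodia and of contraction, had log2 fold changes of -0.03 and 0.04, and Elmo1, at 6 to 19 counts, one of 0.68 with an SE of 0.39.

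Among partners and regulators of the kinases, Csk, which inhibits Src family kinases, and the phosphatase Ptpn6 (SHP-1) both had log2 fold changes of -0.06, with adjusted p-values of 0.973 and 0.965 in edgeR's test. Arhgap26, a GTPase-activating protein that binds FAK and PYK2, had the highest value of this role, 0.33 (SE 0.27), and Rasa1 the lowest, -0.20 (SE 0.29). The lowest adjusted p of the role was 0.935.

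**Figure D4:**
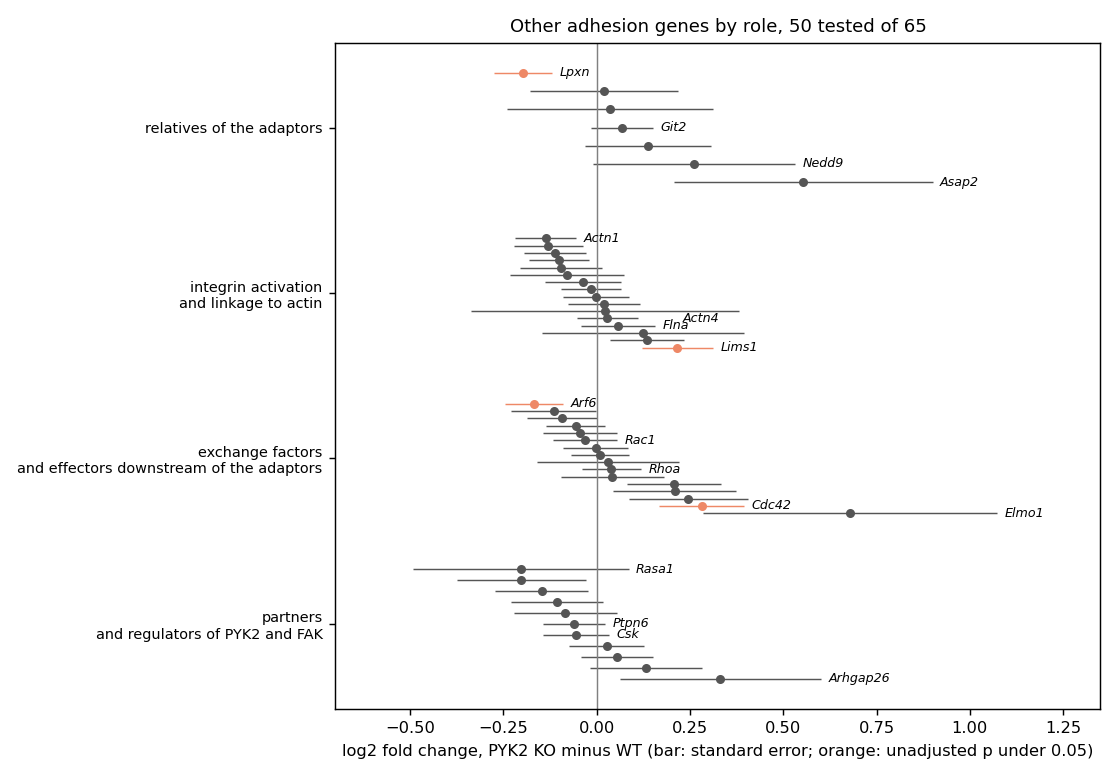
Log2 fold change, PYK2 KO minus WT (x axis), of the 50 tested genes of the adhesion list in 4 roles, with standard errors. Genes with an unadjusted p under 0.05 (Lpxn, Lims1, Arf6 and Cdc42) are orange. Points scatter on both sides of 0 in each role, from -0.20 to 0.68.

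Because DNA around a deleted gene can differ between knockout and WT mice, and because Ptk2 was lower as well, the genes within 1 Mb of both kinase genes were examined. Around Ptk2b, 9 other genes were tested and 0 passed (edgeR's quasi-likelihood test). Trim35, named for its position as the nearest of them, which starts at -15.979 kb from the start of Ptk2b (minus is upstream), had a log2 fold change of -0.08 (SE 0.08). At an unadjusted p under 0.05 there were 2 of the 9, in opposite directions, against 6.03% of all tested genes. Adra1a, which encodes an adrenergic receptor, had 18, 20 and 12 counts in WT and 3, 7 and 10 counts in PYK2 KO libraries, a log2 fold change of -1.16 (SE 0.39, adjusted p = 0.583 in edgeR's test). Ccdc25 had 71, 53 and 50 counts in WT and 76, 85 and 62 counts in PYK2 KO libraries, a log2 fold change of 0.51 (SE 0.18, adjusted p = 0.627 in edgeR's test).

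Around Ptk2, 7 other genes were tested and 0 passed (edgeR's quasi-likelihood test). The nearest of them, Dennd3, which starts at -89.28 kb and is likewise named for its position, had 8, 8 and 11 counts in WT and 16, 12 and 12 counts in PYK2 KO libraries, a log2 fold change of 0.70 (SE 0.36), opposite in sign to that of Ptk2. Their median log2 fold change was 0.04, and Ptp4a3, a phosphatase gene which starts at -299.865 kb from the start of Ptk2, was the 1 gene of the 7 with an unadjusted p under 0.05, against 6.03% of all tested genes. It was at 41.1, 58.5 and 48.0 CPM in WT against 34.969, 34.985 and 33.4 CPM in PYK2 KO BMDMs, so all PYK2 KO values were lower (log2 fold change -0.51, SE 0.14, adjusted p = 0.359 in edgeR's test). The part that neighbouring DNA has in any of these differences was not tested, since gene counts hold no sequence variants.

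**Figure D5:**
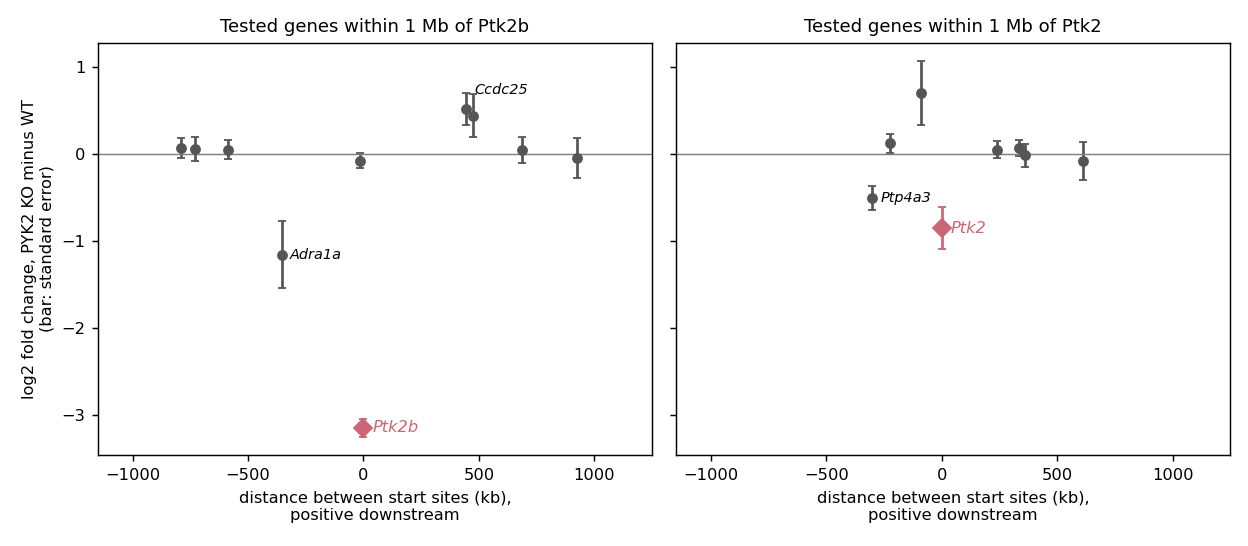
Log2 fold change, PYK2 KO minus WT (y axis, bars are standard errors), of the tested genes within 1 Mb of Ptk2b (left) and Ptk2 (right) against the distance between start sites in kb. The kinase gene itself is the red diamond. Trim35, the nearest gene to Ptk2b, sits at -0.08. Dennd3, the nearest to Ptk2 by start site, sits at 0.70, while Ptp4a3, farther from Ptk2, lies at -0.51. Ago2, nearer to Ptk2 by gene bounds, sits at 0.04.

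The profiles of the kinases over the 6 libraries were last compared with those of all other tested genes, by the root-mean-square difference of log2(CPM + 1) values centred on each gene's mean. This is a description, in which closeness to Ptk2b mostly reflects a large fall in PYK2 KO BMDMs. Nearest to Ptk2b were Rptoros (difference 0.45), Wdfy1 (0.49) and Rab4a (0.77), against a range of 3.21 for Ptk2b itself. Wdfy1, which encodes an endosomal protein, had 145, 131 and 100 counts in WT and 23, 25 and 22 in PYK2 KO libraries. Rptoros, an antisense gene, had 83, 86 and 72 counts in WT and 1, 2 and 3 in PYK2 KO libraries, where reads of the gene and of its antisense partner cannot be told apart without strand. Nearest to Ptk2 were H2-Ab1 (0.12), Mapkbp1 (0.13) and H2-Aa (0.13), against a range of 1.11 for Ptk2. H2-Ab1 and H2-Aa, which encode chains of an MHC class II molecule, had log2 fold changes of -0.77 and -0.71 with adjusted p-values of 0.0139 and 0.0109 in edgeR's test. Mapkbp1 was at 11.9 ± 2.02 and 6.98 ± 1.27 CPM (SD, n = 3 each) and did not pass (adjusted p = 0.537 in edgeR's test).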

How the data were processed

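RNA of BMDMs from 3 WT and 3 PYK2 KO mice was sequenced by bulk MARS-seq. What the authors deposited is a table of raw counts for each gene and mouse, made with the UTAP pipeline, neither normalized nor pooled; cutadapt, STAR and the build mm10 are named per the labels. Tool versions, the annotation, strand and collapsing of molecular identifiers are not given in the sources used here, so 1 molecule may have been counted more than once. Floors cover counting error only.

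Columns were assigned to mice by their names. The test was the quasi-likelihood F test of edgeR 4.0.16 (R 4.3.3) on genotype alone, after filterByExpr and TMM scaling, with a threshold of 0.05 on p-values adjusted by Benjamini-Hochberg over all tested genes. SEs were derived from fold change and F, and 95% intervals from the t distribution. DESeq2 1.42.0, limma 3.58.1 (voom), the likelihood ratio test, other normalizations and filters, a residual principal component as covariate and leaving out each library were alternatives. Permutation tests (SciPy 1.17.1) used log2(CPM + 1). Positions, transcripts and overlaps came from GENCODE M21 (GRCm38, the build that mm10 names), by symbol for 98.8% of tested genes.

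The members, the lists of adhesion genes and cell type markers and the tests were chosen with earlier results of these data known. Besides the members, the text names in each role of the adhesion list the 2 tested genes with the highest mean CPM and the 2 with the largest absolute log2 fold change, tested genes within 1 Mb of Ptk2b or Ptk2 with an unadjusted p under 0.05, and the 3 genes with profiles most like each. The families were put together from the members and that list, with the values known. Marker lists for other cells were small in level except where named, and none of their genes passed the test. In summed CPM, the T cell list reached at most 9.24, dendritic at most 1.02, endothelial at most 9.30 and erythroid 0. The neutrophil and precursor list summed to 128 to 181 CPM in WT and 135 to 231 CPM in PYK2 KO libraries. Of its 6 tested genes, S100a9 had a log2 fold change of 0.85, Mpo 1.19, S100a8 0.097 and Ngp 0.19. Camp and Ltf went the other way, at -0.26 and -0.091. For Mpo, all PYK2 KO values lay above WT.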

Additional observations from a re-analysis of the deposited data

How the results depend on the processing

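No paired analysis was possible, since the sources used here give no litter or batch that joins a WT mouse to a PYK2 KO mouse. Ptk2b and Ptk2 changed neither direction nor side of the threshold under the 15 alternatives run for each. Ptk2b ran from -3.16 to -3.14, and from -3.19 to -3.11 with a library left out. The number of members called was 1 and that of the 65 adhesion genes 0 in every alternative. The number of all genes called was 159 without a filter, 45 with the likelihood ratio test and 62 with a residual principal component as covariate, and each held the 25 of the main result. It ran from 14 to 34 with a library left out, the lowest values being 14 without PYK2 KO mouse 4 and 15 without PYK2 KO mouse 2 or WT mouse 5. The cause was not tested for any of these.

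Of 105 values for the other 7 members, 95 kept their direction and none came to pass the threshold, and 10 changed sign around 0: Asap1 with upper quartile scaling (0.0085) or library size alone (0.0067) and, with a library left out, Asap1 (-0.025 to 0.032), Git1 (-0.11 to 0.11), Tln1 (-0.095 to 0.027) and Vcl (-0.081 to 0.32). The negative Vcl value came without WT library 5 and the negative Git1 values without WT library 1 or PYK2 KO library 2, so none of these 4 genes has a direction here. Bcar1 had too few counts to be tested, and Ptk2 and Vcl, at 16 to 74 counts a library, had the widest intervals.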

Other observations

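Of the marker lists for other cell types, the B cell and the megakaryocyte lists each held a transcript far above the rest of the list, and these are named after their values were seen. Ighm, the immunoglobulin heavy constant mu gene of B cells, had 904 to 1367 counts in every library, while the B cell genes Cd79a, Ms4a1 and Pax5 had 0 throughout and Cd79b had 43 to 80. From WT to PYK2 KO BMDMs its mean went from 362 to 336 CPM, a log2 fold change of -0.11 (adjusted p = 0.935 in edgeR's quasi-likelihood test). Pf4, a platelet chemokine gene, had 1922 to 2535 counts, while Gp9 and Gp1bb, which encode platelet receptor subunits, had 0 and Itga2b had 0 to 4. Its log2 fold change was -0.14 (adjusted p = 0.933 in edgeR's test).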
